A study of Mus musculus with 73 samples.

Results

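The extraembryonic ectoderm (ExE) and the epiblast of Dnmt1 knockout mouse embryos were compared within each embryo at embryonic day 6.5. The members were chosen by the library titles: the 3 ExE and the 3 epiblast libraries of Dnmt1 knockout embryos 44, 45 and 46, paired by embryo number, which are 6 of the 72 RNA libraries and of the 73 samples of the series. The reference was the same difference in 7 wild-type embryos of the same cross, which share no library with the knockouts.

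The study disrupted epigenetic regulators in zygotes and asked how parental imprints are kept in the embryonic and extraembryonic lineages. All embryos of both groups had a BDF1 mother and a CAST father (Bdf1xCast) and came from sperm injection, blastocyst transfer into CD-1 females and dissection at day 6.5. The knockouts received Cas9 mRNA and several guide RNAs against different Dnmt1 exons at the pronuclear stage, so each embryo is its own editing event and no clone is shared. The labels used here do not say whether the wild-type embryos were injected, so effects of injection and of the knockout cannot be told apart. Visceral endoderm was stripped from both tissues, and a small number of cells of each was sequenced as bulk RNA. Embryo 44 was labelled male, and embryos 45 and 46 female. A reciprocal wild-type cross with a CAST mother (CastxBdf1, 4 embryos, natural mating) served only to tell parent from strain.

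Dnmt1 is the maintenance methyltransferase that copies CpG methylation onto the new DNA strand after replication. Without it, methylation is diluted with each division, and genes that rely on promoter methylation for silencing, many germline genes among them, as well as imprinted genes that carry a methylated control region, can be expressed from alleles that are otherwise silent. At this stage the epiblast genome is highly methylated, whereas the ExE, the stem cell compartment of the placenta, is methylated less, and a few genes are imprinted there without inherited DNA methylation (noncanonical imprinting).

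Values are reads over strain polymorphisms, scaled to the library total of such reads (CPM). They are not scaled to gene length, so levels are compared between libraries and not between genes. The 6 Dnmt1 libraries held 1141414 to 2324585 reads, and the wild-type libraries held 1311863 to 3053690. In the library labelled ExE of embryo 44 the targeted mRNA was not lower than in wild type. Dnmt1 (chromosome 9, 20907206 to 20959888) stood at 47.9, 34.5 and 5.16 CPM in the ExE and at 7.97, 11.4 and 4.70 CPM in the epiblast of embryos 44, 45 and 46. Wild-type ExE ranged from 35.7 to 62.2 CPM (median 47.4) and wild-type epiblast from 21.9 to 40.4 CPM (median 34.0). The 3 epiblast libraries lay below all of the wild type, and 2 of the 3 ExE libraries did. Dnmt1 mRNA was higher in the knockout ExE than in its epiblast, with a log2 difference of 1.72 ± 0.40 (SE; edgeR adjusted p = 0.00287), but not without embryo 44 (log2 1.10, adjusted p = 0.107). Counts that moved by over 1.5 times without embryo 44 are given with that value. Among the wild-type libraries, the epiblast of embryo 55 stood apart with the fewest reads (1311863) and the most genes with a read (20567).

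Lineage markers followed the tissue labels in the knockouts. Of 16 tested ExE and trophoblast stem cell markers, 15 were higher in Dnmt1 ExE than in Dnmt1 epiblast and 0 were lower, with a median log2 difference of 5.73 in Dnmt1 and 5.47 in wild type. Of 14 tested epiblast markers, 9 were lower in ExE and 1 was higher, with medians of -5.44 and -5.19. All 12 tested genes of trophoblast differentiation were higher in Dnmt1 ExE. Across all 10943 autosomal genes tested, 4167 differed between the Dnmt1 tissues (1885 higher and 2282 lower in ExE), or 38.1%, and the median log2 difference was -0.08. These calls are edgeR quasi-likelihood tests at an adjusted p of 0.05 with the embryo as a block. Without embryo 44 the calls numbered 2458, and without embryo 45 they numbered 2646.

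Among the trophoblast genes, Elf5, a transcription factor that maintains trophoblast stem cells, had 404, 285 and 700.3 CPM in the ExE of embryos 44, 45 and 46 against 3.28, 7.01 and 3.36 CPM in the epiblast. Tfap2c, an AP-2 factor of the same network, had 214, 192 and 205 CPM against 1.88, 2.63 and 3.36 CPM. In both genes every ExE library lay above every epiblast library, and 51.3% of all genes tested had tissues that did not overlap, in either direction. Cdx2 had 64 reads in Dnmt1 ExE and 0 in Dnmt1 epiblast. Eomes, a T-box factor used both in the trophoblast and in the primitive streak, was the marker that was not called, with 107, 184 and 245 CPM in ExE and 238, 223 and 74.5 CPM in epiblast. Of the differentiation genes, Krt18, a keratin of simple epithelia, was higher in ExE by 3.75 ± 0.37 on the log2 scale (SE; edgeR adjusted p = 8.82e-07).

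The 6 genes with the largest fitted rise and separate libraries had 0 reads in Dnmt1 epiblast, so their folds are lower bounds and give no ranking. Wnt7b, a secreted Wnt ligand, had 30.1, 32.7 and 61.9 CPM in ExE and was at least 66.0-fold higher there, counting the epiblast at 3 reads over its 3 libraries. By the same rule Tmem114 was at least 58.5-fold, Duox2, an oxidase that makes hydrogen peroxide, at least 40.1-fold, AU021092 at least 37.1-fold, Cmtm5 at least 36.1-fold and Gja4, a connexin, at least 30.7-fold higher. The wild-type ExE libraries had medians of 16.1 CPM for Wnt7b and 58.3 CPM for Tmem114, and neither of these genes differed between genotypes in its lineage difference (edgeR adjusted p = 0.651 and 0.394).

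In the other direction, Mesp1, a factor of the earliest mesoderm, had 131, 73.6 and 7.38 CPM in the Dnmt1 epiblast and 0 reads in Dnmt1 ExE, at least 141-fold lower. LOC102631676 was at least 108-fold, 2900011O08Rik at least 93.3-fold, Etv1, an ETS factor, at least 79.4-fold, Foxp1, a forkhead factor, at least 70.8-fold and Hist3h2ba at least 63.3-fold lower in ExE. Fgf5, a ligand that marks the postimplantation epiblast, fell from 575, 647 and 408 CPM in epiblast to 4.08, 2.34 and 0.860 CPM in ExE. Tdgf1, the Nodal co-receptor, fell from 1548, 1549 and 486 CPM to 2.55, 8.77 and 8.17 CPM. Utf1 ran against its list and was higher in ExE in both genotypes, with log2 differences of 1.23 ± 0.31 in Dnmt1 and 1.37 in wild type; the Dnmt1 call was lost without embryo 44 or 45.

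Of 12 tested primitive streak and mesoderm genes, 10 were lower in Dnmt1 ExE and 0 were higher, where 20.9% of all genes were lower and 17.2% higher. T, the brachyury factor of the streak, had 236, 184 and 18.1 CPM in the epiblast and 6.62, 21.6 and 7.74 CPM in the ExE of embryos 44, 45 and 46. The epiblast of embryo 46 was lowest for T, Mesp1 and Mixl1, and wild-type epiblast ranged more widely still for T, from 5.61 to 313 CPM. T was no longer called without embryo 44 (highest adjusted p over the 3 omissions, 0.0829).

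Markers of cells that the dissection should remove were found in both tissues of both genotypes. The 23 visceral endoderm markers summed to between 1089 and 1217 CPM in Dnmt1 epiblast and to between 607 and 1286 CPM in Dnmt1 ExE, against 670.1 to 1515 and 386 to 827 CPM in wild type. Of the 16 tested, 10 were lower in Dnmt1 ExE and 0 were higher, where 20.9% of all genes were lower. Without embryo 44, only 2 of 16 were lower, against 1284 of all 11462 genes. With DESeq2, 5 of 16 were lower, against 2267 of all 10943 genes. Apoe, also made elsewhere, and Car4 carried most of the ExE sum, at 320.0, 726 and 857 CPM and at 266, 317 and 375 CPM, and neither was called. Afp, a secretory product of this layer, averaged 23.8 CPM in Dnmt1 epiblast and 0.938 CPM in Dnmt1 ExE, Apoa1 had 87 and 0 reads, and Fgb was at 0 in all 4 groups. The 10 blood and decidua markers summed to 59.0 to 79.7 CPM in Dnmt1 epiblast and 1.53 to 6.43 CPM in ExE, led by Vim, with Hbb-bt and Ptprc at 0 in the Dnmt1 libraries. The part of these cells in genes that were higher in epiblast was not tested, and in bulk RNA fewer cells of a type and less RNA per cell cannot be told apart.

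**Figure D1:**
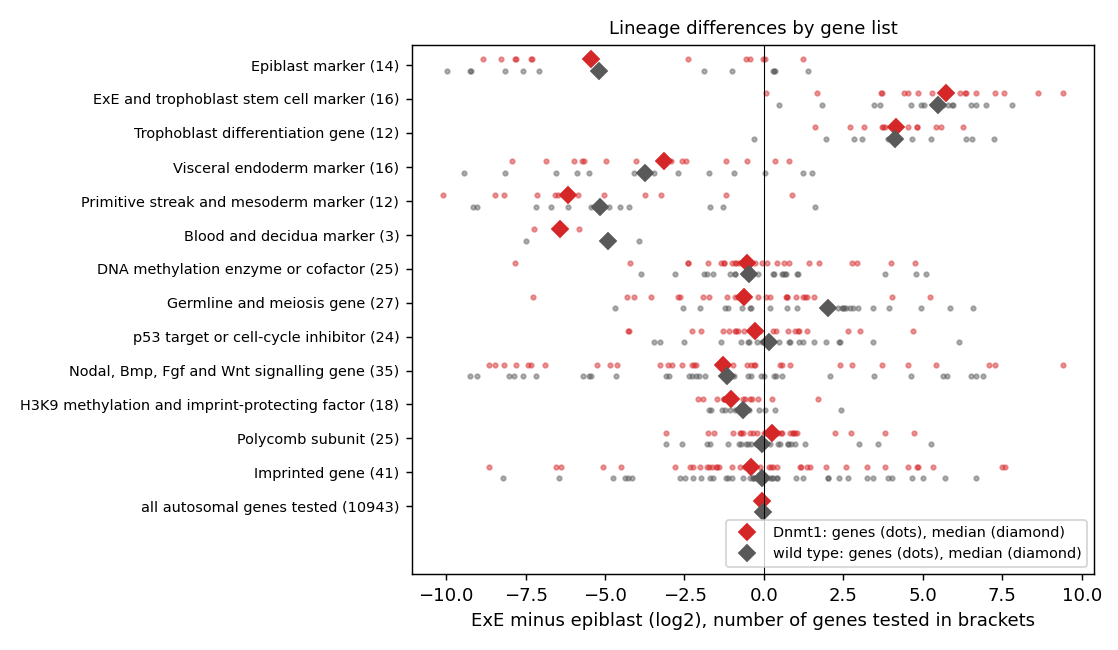
ExE minus epiblast log2 differences by gene list; dots are tested genes, diamonds are list medians, red is Dnmt1 (3 embryos) and grey is wild type (7 embryos). The medians of the germline list lie at -0.64 in Dnmt1 and 2.01 in wild type, while those of the ExE marker list lie at 5.73 and 5.47.

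At this stage Nodal, Fgf4 and their co-factors are made by the epiblast, and the ExE answers with Bmp ligands. Of 35 tested genes of the Nodal, Bmp, Fgf and Wnt pathways, 19 were lower and 7 higher in Dnmt1 ExE, against 21 and 9 in wild type. Over all genes 20.9% were lower and 17.2% higher in Dnmt1 ExE. Bmp4 was the 1 gene of the list that differed between genotypes, with a more negative difference in Dnmt1. Among the ligands, Fgf8 had 103, 96.4 and 49.7 CPM in Dnmt1 epiblast and 0, 0.585 and 0 CPM in ExE, and Nodal differed by -5.26 on the log2 scale. Bmp8b stood at 247, 294 and 419 CPM in ExE against 2.81, 0.876 and 2.68 CPM in epiblast. Etv5, a transcriptional target of Fgf signalling, fell from 695, 742 and 548 CPM in epiblast to 48.4, 120.4 and 84.7 CPM in ExE. Dusp6, a phosphatase induced by the same pathway, had overlapping libraries and was not called (log2 -0.52, adjusted p = 0.203).

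Of 25 tested enzymes and cofactors of DNA methylation, 7 were higher and 10 lower in Dnmt1 ExE (7 and 12 in wild type), against 38.1% of all genes in either direction. Without embryo 44, 4 were higher and 7 lower. None of the 25 differed between genotypes, where 0.302% of all genes did. Dnmt3b, a de novo methyltransferase, had 3651, 3227 and 2766 CPM in the epiblast and 495, 667 and 676 CPM in the ExE of embryos 44, 45 and 46. Its log2 difference was -2.38 ± 0.26 in Dnmt1 (edgeR adjusted p = 1.9e-06) and -1.87 in wild type. Uhrf1, which brings Dnmt1 to hemimethylated CpGs, differed by -0.92 ± 0.24 (adjusted p = 0.00526), a call lost without embryo 44 or 45. Hells, a chromatin remodeller needed for methylation, differed by -0.87 ± 0.20 (adjusted p = 0.0026), with 259, 258 and 229 CPM in epiblast and 154, 130 and 123 CPM in ExE. Dnmt3l, a cofactor of the de novo enzymes, differed by 2.76 in Dnmt1 and 3.82 in wild type.

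Of 18 tested H3K9 methylation and imprint-protecting factors, 12 were lower in Dnmt1 ExE and 1 higher (13 and 1 in wild type). Without embryo 44 or 45, 7 were lower. Cbx1, a heterochromatin protein, fell from 245, 253 and 183 CPM to 55.0, 69.0 and 53.8 CPM (log2 -1.92 ± 0.23, edgeR adjusted p = 4.95e-06). Of 25 tested Polycomb subunits, 8 were higher and 5 lower in Dnmt1 ExE (8 and 8 in wild type). Over all genes 17.2% were higher and 20.9% lower. Without embryo 44, 6 of 27 tested subunits were higher and 2 lower, against 1174 and 1284 of all 11462 genes. Without embryo 45, 5 of 25 were higher and 3 lower, against 1265 and 1381 of all 11420 genes. Ezh2, the PRC2 methyltransferase, had 295, 237 and 223 CPM in epiblast and 145, 156 and 139 CPM in ExE, a call (adjusted p = 0.00736) lost without embryo 44.

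Of 24 tested p53 targets and cell-cycle inhibitors, 6 were higher and 6 lower in Dnmt1 ExE (8 and 7 in wild type), shares near the 17.2% and 20.9% of all genes. Without embryo 44, 1 was higher and 3 were lower, and without embryo 46, 5 and 3. Pmaip1, which encodes the death-promoting protein Noxa, had 278, 434 and 439 CPM in Dnmt1 epiblast against 12.2, 49.1 and 10.8 CPM in ExE. Ccng1, a direct p53 target, had 131, 115 and 142 CPM in epiblast and 64.7, 80.7 and 64.1 CPM in ExE (log2 -0.88 ± 0.23, edgeR adjusted p = 0.00624), a call lost without embryo 44 or 46. Its wild-type difference was 0.23, and the difference between genotypes did not pass the test (adjusted p = 0.112; 0.0397 with DESeq2). The list summed to between 1379 and 1961 CPM in Dnmt1 epiblast and to between 1096 and 1146 CPM in Dnmt1 ExE.

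The knockout and wild-type lineage differences were alike for most genes. Across the 10943 genes the log2 differences had a Pearson correlation of 0.888, given as a description over genes, which are not independent. Of 6529 genes called in wild type (59.7% of those tested), 6192 had the same direction in Dnmt1 (94.8%), and 3746 were called in both genotypes, which is 89.9% of the Dnmt1 calls and 57.4% of the wild-type calls. Only 11 of those 3746 had opposite directions. A test of the difference itself, Dnmt1 minus wild type, called 33 genes, or 0.302% of those tested (1071 at an unadjusted p under 0.05). The median of this difference over all genes was -0.06.

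**Figure D2:**
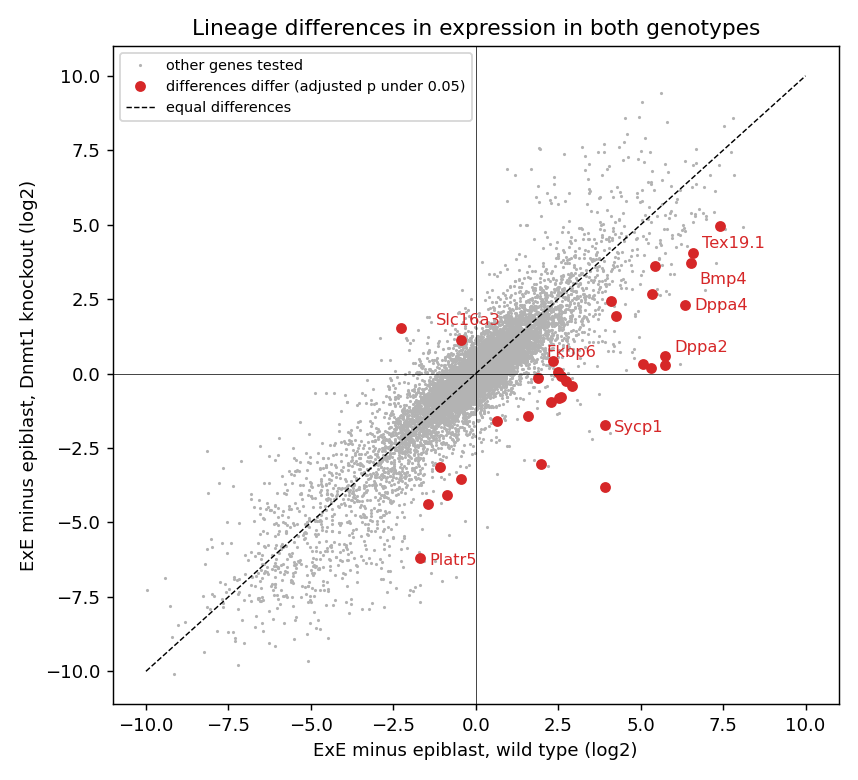
Log2 difference between ExE and epiblast for 10943 autosomal genes, wild type on the horizontal axis and Dnmt1 knockout on the vertical axis. The 33 genes in red differed between genotypes, and 31 of them lie below the line of equal differences.

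In the 33 genes the direction was uneven: 31 had a more negative difference in Dnmt1 (0.283% of those tested) and 2 a more positive one (0.0183%). Of the 31, 26 were higher in ExE than in epiblast in wild type. Within these 26, 8 were still called higher in Dnmt1 ExE, 12 were not called and 6 were called lower. The other 5 had a wild-type log2 difference below 0, counted by sign whether or not it was called, and a more negative one in Dnmt1. Slc25a31, whose wild-type tissues overlapped, is among them. In 26 of the 31 all 3 Dnmt1 epiblast libraries lay above all 7 wild-type ones, an arrangement found in 12.1% of the genes tested. In the ExE, 6 of the 31 lay wholly above and 6 wholly below wild type, against 16.8% and 6.49% of all genes. The 3 embryo differences of Dnmt1 and the 7 of wild type did not overlap in 31 of the 33 called genes, against 5.61% of all genes. The genes were called on these same libraries, so these arrangements describe the calls and are no separate support for them.

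The list of germline and meiosis genes held 6 of the 33 calls, all more negative in Dnmt1, where 0.283% of all genes tested were. Tex15, also among the 33, is not on the list and is not counted. The 6 include Tuba3a and Tuba3b, whose reads may be shared and which count as 1 observation. The 33 also hold Sycp1-ps1, by its name a pseudogene of Sycp1, and these 2 may share reads as well. Of the 27 tested genes of this list, 17 were higher and 3 lower in wild-type ExE than in wild-type epiblast, whereas in Dnmt1 2 were higher and 7 lower. Over all genes, 29.1% were higher and 30.5% lower in wild type, and 17.2% and 20.9% in Dnmt1. The 7 of 27 lower in Dnmt1 are thus near the share of all genes. The list's median log2 difference was 2.01 in wild type and -0.64 in Dnmt1, and the difference between genotypes was below 0 in 25 of 27 genes (median -1.80), against 5981 of all 10943. Summed over the 44 autosomal genes of the list, Dnmt1 epiblast had 909 to 1304 CPM against 163 to 282 CPM in wild type, and Dnmt1 ExE had 1817 to 1836 CPM against 596 to 1067 CPM. The list's calls numbered 10 without wild-type embryo 55, and 3, 2 and 2 without Dnmt1 embryos 44, 45 and 46. Over all genes the more negative calls moved as well, to 99 without embryo 55 and to 15, 14 and 9 without embryos 44, 45 and 46.

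The promoters of 4 of these genes are printed because the genes moved together and their promoters are rich in CpG, the site that Dnmt1 maintains. Each runs 5′ to 3′ on the strand of the gene, from 250 bases before to 50 bases after the RefSeq start on GRCm38.p6, with CpG in capitals. Sycp1, chr3:102936051-102936350, minus strand; Slc25a31, chr3:40708621-40708920, plus strand; Fkbp6, chr5:135349995-135350294, minus strand; Tex19.1, chr11:121145893-121146192, plus strand.
Sycp1: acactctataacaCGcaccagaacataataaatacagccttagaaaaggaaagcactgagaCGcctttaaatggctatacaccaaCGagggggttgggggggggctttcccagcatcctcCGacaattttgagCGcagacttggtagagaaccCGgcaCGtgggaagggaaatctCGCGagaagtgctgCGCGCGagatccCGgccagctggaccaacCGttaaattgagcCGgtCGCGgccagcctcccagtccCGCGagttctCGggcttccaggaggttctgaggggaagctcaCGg
Slc25a31: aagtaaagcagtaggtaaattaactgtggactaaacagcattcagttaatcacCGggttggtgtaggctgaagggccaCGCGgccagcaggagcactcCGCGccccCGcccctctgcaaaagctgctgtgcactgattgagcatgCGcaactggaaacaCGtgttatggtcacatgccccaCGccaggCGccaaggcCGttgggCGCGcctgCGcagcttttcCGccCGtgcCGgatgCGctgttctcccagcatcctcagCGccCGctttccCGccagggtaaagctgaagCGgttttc
Fkbp6: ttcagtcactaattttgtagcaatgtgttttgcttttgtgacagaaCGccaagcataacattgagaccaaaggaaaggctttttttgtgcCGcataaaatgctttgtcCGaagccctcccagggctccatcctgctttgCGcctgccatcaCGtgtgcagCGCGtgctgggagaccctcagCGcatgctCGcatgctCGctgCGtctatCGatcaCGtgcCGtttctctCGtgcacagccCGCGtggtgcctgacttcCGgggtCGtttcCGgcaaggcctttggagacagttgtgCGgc
Tex19.1: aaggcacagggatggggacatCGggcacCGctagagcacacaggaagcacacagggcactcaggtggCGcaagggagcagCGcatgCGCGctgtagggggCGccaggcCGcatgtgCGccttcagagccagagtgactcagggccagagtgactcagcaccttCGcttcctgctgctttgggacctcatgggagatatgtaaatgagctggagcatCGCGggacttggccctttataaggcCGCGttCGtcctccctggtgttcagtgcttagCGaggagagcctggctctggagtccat

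The 4 windows held 21, 22, 21 and 16 CpG, more than 75.2%, 76.9%, 75.2% and 67.0% of the 32851 windows of the RefSeq table. They were picked for their CpG, so these ranks follow from the choice. Windows could be matched for 26 of the 31 genes with a more negative difference, and they held 2 to 46 CpG (median 13, against 7 over all windows). The letters CACGTG, a palindrome and so the same on both strands, were found in 6 of the 26 (23.1%), namely Sycp1, Ccdc172, Bmp4, Slc25a31, Fkbp6 and Klhl22, and in 7.15% of all windows. The first match lay 94 bases before the start in Sycp1, 93 in Slc25a31 and 101 in Fkbp6. The letters TCCCGC on either strand were found in 8 of the 26 (30.8%) and in 19.98% of all windows. Both strings of letters contain a CpG, and the 26 windows held more CpG than all windows, which also include genes not tested here. The shares are therefore not of like sets, and enrichment was not tested. These are matches of letters and not measured sites, and methylation was not measured in these libraries.

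Sycp1, a structural protein of the synaptonemal complex that joins chromosomes in meiosis, had 81.1, 56.9 and 34.9 CPM in the epiblast and 19.9, 8.77 and 22.4 CPM in the ExE of embryos 44, 45 and 46. In wild type it ranged from 0 to 2.53 CPM in epiblast (median 0.404) and from 8.19 to 27.9 CPM in ExE (median 13.4). The Dnmt1 ExE libraries thus lay within the wild-type range, and the Dnmt1 epiblast libraries lay above it. The lineage difference was -1.73 ± 0.49 in Dnmt1 and 3.92 in wild type on the log2 scale, and the 2 differed by -5.65 ± 0.69 (SE; edgeR adjusted p = 0.000453). The Dnmt1 difference by itself was lost without embryo 44 or 45, but the difference between genotypes was called in each omission. Dppa2 and Dppa4, neighbours on chromosome 16 (48310274 to 48319513 and 48283735 to 48294292), encode a pair of chromatin proteins of pluripotent cells. Dppa4 had 43.1, 54.3 and 185 CPM in Dnmt1 epiblast and 279, 468 and 419 CPM in Dnmt1 ExE, and wild type had medians of 6.32 CPM (2.77 to 11.7) and 499 CPM (349 to 568). Its difference remained positive in Dnmt1, at 2.32 ± 0.35, but differed from that of wild type by -4.03 ± 0.44 (edgeR adjusted p = 0.000184). Dppa2 had 17.8, 15.8 and 57.0 CPM in Dnmt1 epiblast and 28.0, 65.5 and 36.1 CPM in ExE, so that its tissues overlapped, while wild-type epiblast reached at most 2.94 CPM and wild-type ExE at least 45.5 CPM.

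Fkbp6, an immunophilin needed for meiosis and for transposon silencing in the germline, stood at 129, 156 and 262 CPM in Dnmt1 epiblast and at 159, 228 and 161 CPM in Dnmt1 ExE. Wild type had medians of 10.9 CPM in epiblast (5.03 to 21.3) and 61.1 CPM in ExE (33.3 to 94.2). Both Dnmt1 tissues lay above their wild-type counterparts, and the 2.48 log2 difference of wild type shrank to 0.06 in Dnmt1 (difference -2.42 ± 0.35, edgeR adjusted p = 0.00238). Tuba3a and Tuba3b encode near-identical alpha-tubulins of the testis, so their reads may be shared and they count as 1 observation. Tuba3a had 160.3, 99.9 and 180 CPM in Dnmt1 epiblast and 115, 76.0 and 58.1 CPM in ExE, while no wild-type library exceeded 15.6 CPM. Tex19.1, a gene of germ cells and placenta, rose from 44.1, 40.3 and 75.2 CPM in Dnmt1 epiblast to 834, 789 and 892 CPM in Dnmt1 ExE. In wild type its medians were 3.77 and 343 CPM, so that both tissues were higher in Dnmt1 and the log2 differences differed by -2.54 ± 0.46. Slc25a31, the ADP/ATP carrier of the testis, had 82.1, 86.7 and 106 CPM in Dnmt1 epiblast and 13.2, 2.34 and 9.03 CPM in Dnmt1 ExE. Its wild-type tissues overlapped, at 2.77 to 17.5 and 2.62 to 7.45 CPM, and the difference of -3.55 ± 0.51 in Dnmt1 exceeded that of wild type by -3.12 ± 0.62 (edgeR adjusted p = 0.0344).

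The call missed some germline genes with a like pattern, and others kept their lineage difference. Rpl10l, a ribosomal protein retrogene of the testis, had 175, 170.0 and 152 CPM in Dnmt1 epiblast and 138, 171 and 125 CPM in ExE against wild-type medians of 6.32 and 38.5 CPM, and narrowly missed the threshold (adjusted p = 0.0723), which it passed with DESeq2, with no filter on low counts, with the wild type of both crosses and without wild-type embryo 55. Zfp42, a zinc-finger gene of stem cells, kept its lineage difference, with 6.10, 7.01 and 10.1 CPM in Dnmt1 epiblast and 224, 312 and 327 CPM in Dnmt1 ExE (log2 5.22 ± 0.33, against 5.86 in wild type; difference -0.64, adjusted p = 0.641). Its neighbour Triml2 on chromosome 8 was among the 33 genes, with 4.69, 12.3 and 7.38 CPM in Dnmt1 epiblast against at most 2.29 CPM in wild type.

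**Figure D3:**
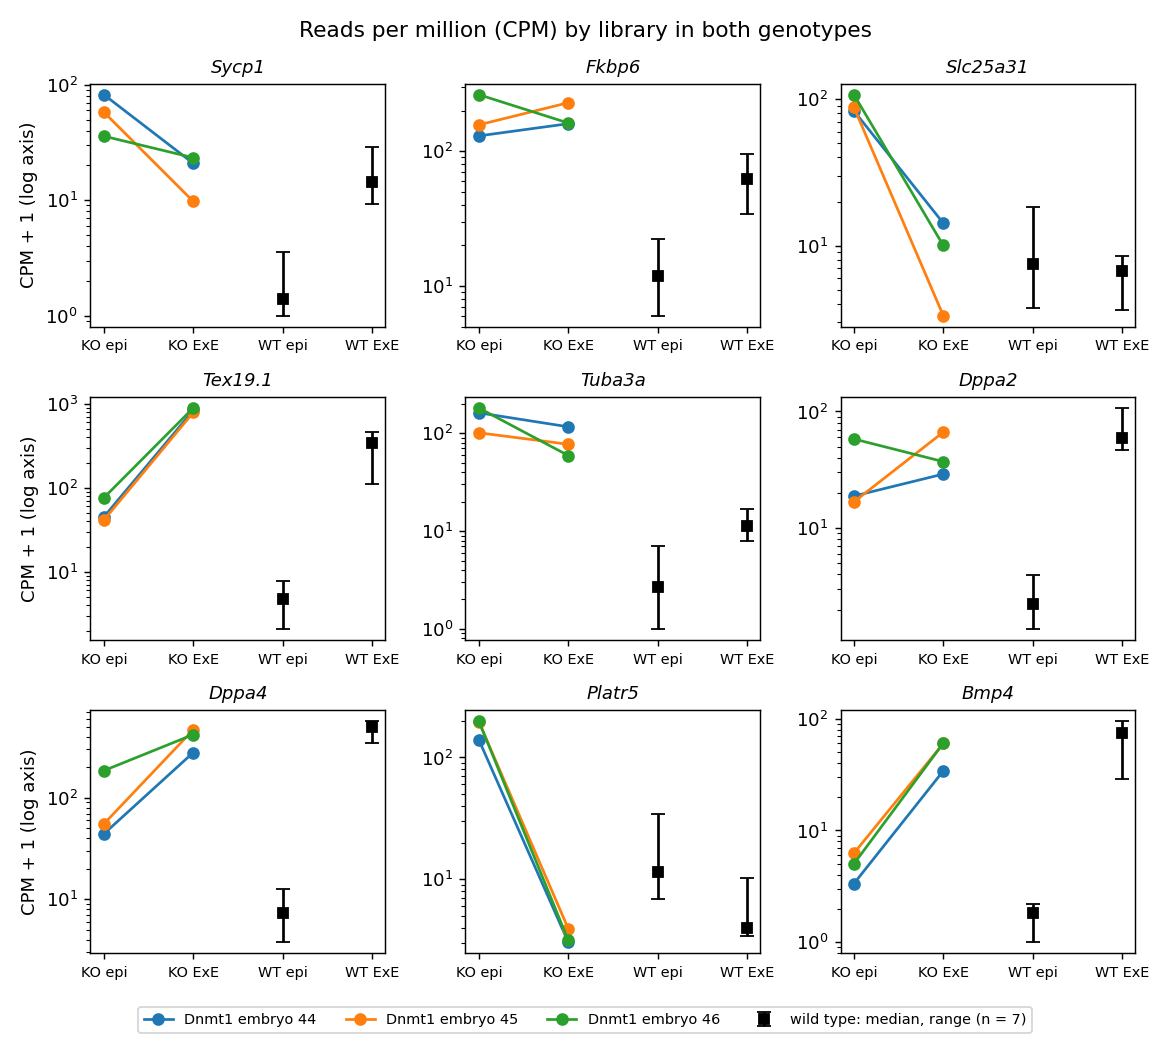
CPM plus 1 on log axes; lines join the epiblast (epi) and ExE of each Dnmt1 knockout (KO) embryo, and squares with bars give the wild-type (WT) median and range of 7 embryos. All 3 knockout epiblast libraries lie above the wild-type epiblast range in genes that include Sycp1, Fkbp6, Slc25a31, Tex19.1, Tuba3a, Dppa2, Dppa4 and Bmp4.

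Other genes in the group had no listed germline role. Platr5, a long noncoding RNA of pluripotent cells, had 138, 195 and 197 CPM in Dnmt1 epiblast and 2.04, 2.92 and 2.15 CPM in Dnmt1 ExE, against wild-type medians of 10.5 and 2.98 CPM. Its difference of -6.19 ± 0.41 in Dnmt1 exceeded that of wild type by -4.51 ± 0.49 (edgeR adjusted p = 0.000184). Bglap3, an osteocalcin-related gene, had 20.6, 18.4 and 34.9 CPM in Dnmt1 epiblast, where wild type reached at most 0.991 CPM, and 34.1, 31.0 and 21.9 CPM in ExE. Ccdc172, which encodes a coiled-coil protein, had 21.6, 21.9 and 18.1 CPM in Dnmt1 epiblast and 4.08, 2.34 and 1.29 CPM in ExE. 1700029P11Rik lay between 4.68 and 15.8 CPM in the 6 Dnmt1 libraries and at 0.843 CPM or less in wild-type epiblast. LOC108167542, which lies within Gm3134 and can share its reads, had 6.71 to 7.97 CPM in Dnmt1 epiblast and 4.68 to 11.7 CPM in ExE.

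Bmp4, the ligand by which the ExE acts on the proximal epiblast, was the only ExE marker called between genotypes. It had 2.34, 5.26 and 4.03 CPM in Dnmt1 epiblast and 33.1, 59.0 and 59.4 CPM in Dnmt1 ExE, and wild type had 0 to 1.21 and 27.7 to 93.8 CPM. Its ExE levels overlapped the wild type, and its lineage difference was 3.72 ± 0.38 in Dnmt1 against 6.51 (difference -2.79 ± 0.57, edgeR adjusted p = 0.0417), on 17 epiblast reads in Dnmt1. In the positive direction, Slc16a3, a lactate transporter, had 38.4, 41.2 and 42.9 CPM in Dnmt1 epiblast and 83.6, 62.6 and 132 CPM in ExE, while in wild type it was lower in ExE, with medians of 34.8 and 24.6 CPM. The difference was 1.59 ± 0.32 (adjusted p = 0.0417).

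These calls rest on 3 embryos. Without embryo 44, 45 or 46, 15, 14 and 9 of the 33 genes were still called, and without wild-type embryo 55 all 33 were, among 134. Of the 15 genes named by the rule, Sycp1, Bglap3, Dppa2, LOC108167542, Platr5, Dppa4 and Fkbp6 were called in each of the 3 omissions. Fkbp6 was lost with the wild type of both crosses (adjusted p = 0.0793). Beyond the 15, Tex15 and Gm14124 were called in each omission, Triml2 was lost in each and Gm32885 was lost without embryo 45 or 46. Slc25a31 was lost without embryo 45 or 46, and the other genes of the 15 were lost in each omission with the same direction: Bmp4 at log2 -2.83 to -2.62, Tex19.1 at -2.64 to -2.26, Tuba3a at -3.52 to -2.90, Tuba3b at -3.49 to -3.07, Ccdc172 at -5.43 to -4.67, 1700029P11Rik at -5.30 to -4.80 and Slc16a3 at 1.38 to 1.90.

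Parental bias was compared next. Each gene's maternal percentage is the share of its allelic reads from the BDF1 allele, and in a single cross this mixes the effects of parent and strain. Between Dnmt1 ExE and its epiblast, 110 of 6482 genes with at least 10 reads in all 6 libraries differed, or 1.7%. Of these, 48 were more maternal (0.741%) and 62 more paternal in ExE (0.956%). In wild type 541 of 6405 genes differed (8.45%), 252 more maternal (3.93%) and 289 more paternal (4.51%) in ExE, and of the 110 Dnmt1 calls 105 of the 108 with a wild-type value had the same direction there. In the reciprocal wild-type cross, 101 of the 110 went the opposite way by parent to Dnmt1, which is the same way by strain, and 8 went the same way by parent. Only signs are compared, and the 101 include Gm32885, which was more paternal in ExE in both wild-type crosses. The calls numbered 61, 56 and 77 without embryo 44, 45 and 46, and 55, 51 and 59 of the 110 were among them.

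Among the genes with the smallest adjusted p, Apoe, Mt1, Gm37013 and Gm38667 followed the strain, and Gm32885 did not. Apoe, a lipid carrier, was 51.8%, 51.6% and 50.5% maternal in the epiblast and 76.6%, 78.6% and 83.1% maternal in the ExE of embryos 44, 45 and 46, at 455 or more reads each. Wild type had 49.6% ± 6.27 and 77.6% ± 1.98 (SD, n = 7), and the reciprocal cross had 43.7% ± 3.05 and 23.6% ± 3.99 (SD, n = 4), so the ExE favoured the BDF1 allele in both crosses. The log2 allelic difference was 1.90 ± 0.17 in Dnmt1 (SE; edgeR adjusted p = 5.38e-08) and 1.84 in wild type. Mt1, a metallothionein, was 34.8%, 37.9% and 39.9% maternal in Dnmt1 epiblast and 52.7%, 54.4% and 51.3% in ExE. Its shift was smaller than in wild type, which went from 30.9% ± 3.88 to 55.8% ± 2.20 (n = 7; difference of the log2 shifts -0.60 ± 0.11, edgeR adjusted p = 0.0145), a call lost without embryo 46. Gm37013 and Gm38667 overlap on chromosome 18 and had the same reads. They moved from 59.8%, 61.5% and 59.6% to 45.8%, 40.9% and 37.5% maternal, again by strain.

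Of the 21 imprinted genes tested, 4 were called in Dnmt1 (Sfmbt2, Gab1, Jade1 and Tssc4), against 1.7% of all genes, and 9 in wild type, against 8.45%. All 4 belong to the 8 genes whose shift went the same way by parent in the reciprocal cross. Sfmbt2, Gab1 and Jade1 are noncanonically imprinted genes, expressed from the paternal allele in the ExE, and Tssc4 lies in the Kcnq1 cluster, whose placental members are expressed from the mother.

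Gab1, an adaptor of growth factor receptors (chromosome 8, 80764431 to 80880519), was 15.6%, 7.32% and 12.3% maternal in the Dnmt1 ExE of embryos 44, 45 and 46, at 355 or more reads each. In the epiblast it was 23.4%, 55.9% and 46.2% maternal, at 77, 34 and 13 reads, so that all epiblast libraries lay above all ExE libraries. Such a separation, in either direction, was found in 16.5% of the 6482 genes tested. For Gab1, wild type had 47.6% ± 6.13 in epiblast and 5.91% ± 2.87 in ExE (SD, n = 7). The log2 allelic difference was -2.12 ± 0.45 (edgeR adjusted p = 0.00854) in Dnmt1 and -3.93 in wild type, and the 2 did not differ by the test (adjusted p = 0.356). Jade1, a subunit of a histone acetyltransferase complex, was 29.4%, 13.1% and 15.3% maternal in ExE and 51.7%, 44.1% and 37.9% in epiblast, at 29 or more reads. Its wild-type ExE stood at 5.44% ± 1.72, and its shift of -1.72 ± 0.40 in Dnmt1 was smaller than the wild-type shift of -4.03 (difference 2.32 ± 0.48, adjusted p = 0.0447). Sfmbt2, a Polycomb-group protein needed in trophoblast, kept 1.02%, 0% and 5.01% maternal reads in Dnmt1 ExE, at 1178 or more reads each (0 of 1178 reads in embryo 45). In Dnmt1 epiblast it had 0%, 28.6% and 21.4% on only 47, 28 and 14 reads, so the tissues overlapped. Wild-type epiblast had 51.6% ± 24.7, with as few as 2 reads in a library, and wild-type ExE 0.0551% ± 0.0941 (SD, n = 7). In the reciprocal cross, wild-type epiblast had only 14.8% ± 16.9 (SD, n = 4), at 10 or more reads. The wild-type epiblast share of Sfmbt2 is thus not well fixed. The Sfmbt2 shift was -3.72 ± 0.96 in Dnmt1 (adjusted p = 0.0384) and -11.8 in wild type, where the ExE value rests on few maternal reads. The 2 shifts differed by 8.07 ± 1.19 (adjusted p = 0.000834), a difference that rests on this uncertain wild-type epiblast share. Smoc1, with too few epiblast reads to be tested, had 0%, 3.85% and 14.8% maternal reads in Dnmt1 ExE.

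The promoter windows of Gab1, Jade1 and Sfmbt2 are printed because their allelic shift between the Dnmt1 tissues was called. Slc38a4, also listed as noncanonical, was tested and not called (edgeR adjusted p = 0.491), and its window is not printed. CpG is in capitals as before. Gab1, chr8:80880470-80880769, minus strand; Jade1, chr3:41555484-41555783, plus strand; Sfmbt2, chr2:10370201-10370500, plus strand.
Gab1: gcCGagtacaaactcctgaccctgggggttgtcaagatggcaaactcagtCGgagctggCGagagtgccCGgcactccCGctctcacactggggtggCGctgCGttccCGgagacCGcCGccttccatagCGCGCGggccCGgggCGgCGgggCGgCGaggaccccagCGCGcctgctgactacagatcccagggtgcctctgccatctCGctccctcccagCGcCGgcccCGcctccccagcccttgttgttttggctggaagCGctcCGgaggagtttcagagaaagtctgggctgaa
Jade1: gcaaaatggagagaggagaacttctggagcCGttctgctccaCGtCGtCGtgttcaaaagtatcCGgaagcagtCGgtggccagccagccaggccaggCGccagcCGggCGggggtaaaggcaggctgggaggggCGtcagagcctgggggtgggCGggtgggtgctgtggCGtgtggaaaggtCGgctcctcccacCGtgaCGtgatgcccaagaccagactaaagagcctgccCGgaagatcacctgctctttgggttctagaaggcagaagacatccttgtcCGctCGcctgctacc
Sfmbt2: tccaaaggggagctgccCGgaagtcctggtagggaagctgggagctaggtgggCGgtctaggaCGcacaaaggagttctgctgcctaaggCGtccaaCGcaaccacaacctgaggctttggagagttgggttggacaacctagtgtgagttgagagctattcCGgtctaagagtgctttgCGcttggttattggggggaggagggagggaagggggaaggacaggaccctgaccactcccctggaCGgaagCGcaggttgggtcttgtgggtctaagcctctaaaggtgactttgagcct

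They held 26, 18 and 9 CpG, more than 83.1%, 70.3% and 54.2% of all windows, and none held the letters CACGTG. In total reads all 3 genes were higher in ExE than in epiblast in both genotypes. Sfmbt2 rose from 22.0, 24.5 and 9.39 CPM in Dnmt1 epiblast to 651, 689 and 807 CPM in Dnmt1 ExE. The log2 expression differences were 5.31 for Sfmbt2, 3.23 for Gab1 and 1.46 for Jade1 in Dnmt1, and none of them differed from wild type by the test.

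Tssc4 was 58.7%, 48.6% and 46.7% maternal in Dnmt1 epiblast and 94.9%, 59.4% and 81.8% maternal in Dnmt1 ExE, at 64 or more reads (log2 2.02 ± 0.52, edgeR adjusted p = 0.038). Wild type had 63.5% ± 10.2 in epiblast and 95.8% ± 3.86 in ExE (SD, n = 7), with a lowest ExE library of 89.1%. Cd81, a tetraspanin encoded beside Tssc4, moved from 61.6%, 63.2% and 58.8% to 91.7%, 80.2% and 80.7% maternal in Dnmt1. Its tissues did not overlap, as in 16.5% of all genes tested, and the test was not passed (1.73 ± 0.49, edgeR adjusted p = 0.0727). For Cd81, wild type went from 67.6% ± 3.58 to 97.6% ± 2.82 (SD, n = 7). Others of the cluster had maternal reads in excess in Dnmt1 ExE too: Phlda2, which restrains placental growth, at 85.1%, 86.0% and 79.4%, and Ascl2, a factor of the placental spongiotrophoblast, at 97.0%, 87.0% and 88.4%. These shares were lower than in wild-type ExE, at 97.7% ± 2.22 for Phlda2 (lowest 93.0%) and 99.6% ± 0.878 for Ascl2 (lowest 97.6%; SD, n = 7). Kcnq1ot1, the paternal noncoding RNA of the same cluster, was 53.3%, 63.6% and 70.3% maternal in Dnmt1 ExE and 58.5%, 51.3% and 60.6% in Dnmt1 epiblast, against 1.26% ± 3.33 and 7.52% ± 10.8 in wild type (SD, n = 7).

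Several genes imprinted in both lineages had many reads from the normally silent allele in both Dnmt1 tissues, and none of them had a lineage difference called in Dnmt1. Peg3, a paternally expressed zinc-finger gene, was 59.5%, 58.8% and 65.7% maternal in epiblast and 54.8%, 56.2% and 55.4% in ExE at 391 or more reads, against 0.897% ± 0.849 and 1.94% ± 3.66 in wild type. H19, the maternally expressed RNA of the Igf2 locus, was 43.5%, 59.2% and 71.7% maternal in epiblast and 54.5%, 54.3% and 55.7% in ExE, with 3588 or more reads in ExE. Wild type went from 82.0% ± 7.26 to 98.9% ± 2.04 for H19, so the lineage differences differed between genotypes (-4.97 ± 0.94, edgeR adjusted p = 0.018). Impact, a paternally expressed regulator of translation, went from 3.48% ± 1.38 maternal in wild-type epiblast to 14.8% ± 7.82 in wild-type ExE (SD, n = 7), away from its expressed allele. In Dnmt1 it had 46.8% to 49.0% maternal reads in epiblast and 36.3% to 52.5% in ExE, and the lineage differences differed by -2.44 ± 0.49 (edgeR adjusted p = 0.0329). Mest had 58.3%, 30.5% and 50.0% in epiblast and 49.4%, 46.4% and 33.1% in ExE, and Meg3 had 58.1%, 55.4% and 61.5% and then 65.4%, 66.9% and 70.9%. Slc38a4, an amino acid transporter of the placenta listed as noncanonically imprinted, kept more paternal than maternal reads in all 6 libraries. It had 30.6%, 24.2% and 34.1% maternal reads in epiblast and 23.1%, 13.5% and 31.3% in ExE. Wild type had 1.74% ± 2.18 in epiblast and 0.498% ± 0.488 in ExE (SD, n = 7).

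**Figure D4:**
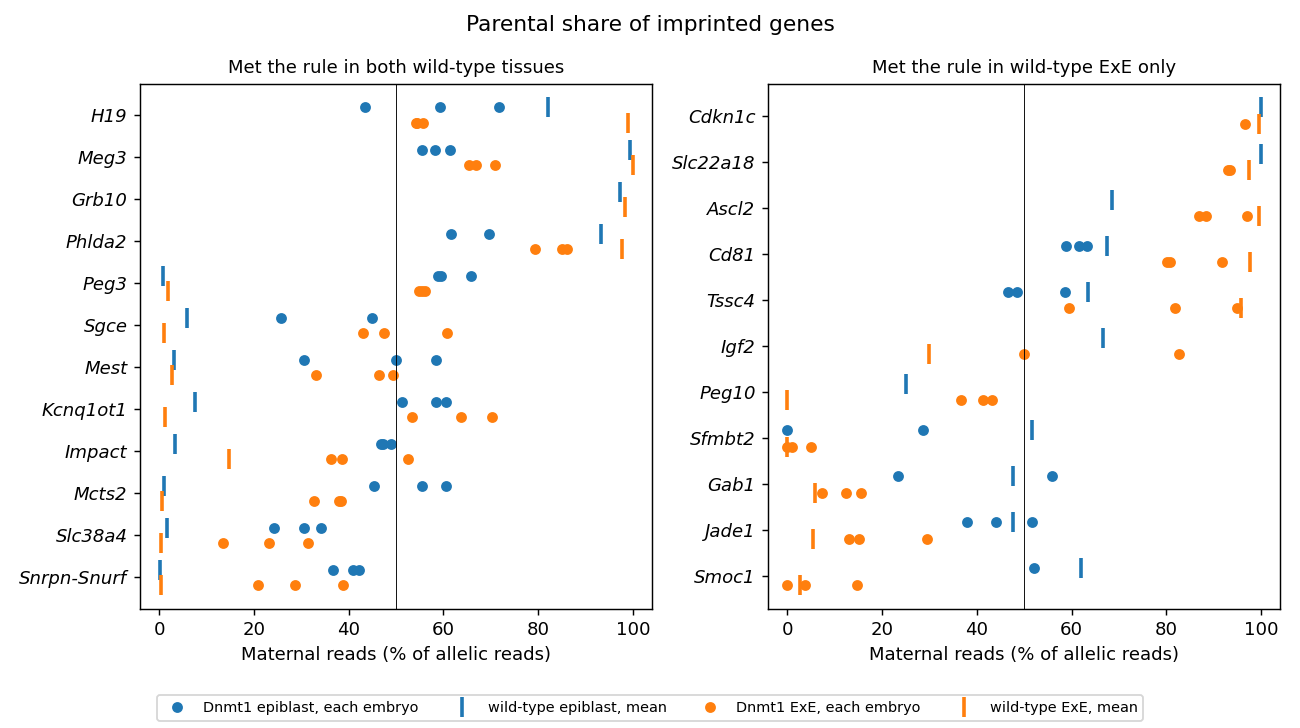
Maternal percentage of allelic reads; each dot is a Dnmt1 library with at least 20 reads of the gene, blue for epiblast and orange for ExE, and vertical ticks are wild-type means. Gab1 (7.32% to 15.6%), Jade1 (13.1% to 29.4%) and Sfmbt2 (0% to 5.01%) lie near the paternal end in Dnmt1 ExE, and Peg3 (54.8% to 56.2%) lies near the middle.

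The share of reads from the normally silent allele summarised these genes. It was taken over listed genes with at most 30% silent-allele reads in both wild-type crosses in that tissue, 15 in epiblast and 23 in ExE. Its median per library was 44.3%, 40.8% and 47.1% in the epiblast and 29.4%, 36.3% and 25.0% in the ExE of embryos 44, 45 and 46, lower in ExE in 3 of 3 embryos. Over the 12 genes that met the rule in both tissues it was 46.8%, 42.7% and 45.1% in epiblast and 43.1%, 38.9% and 33.1% in ExE. The other 11 of the 23 ExE genes met the rule in the ExE only, some of them, such as Cdkn1c, Slc22a18 and Peg10, with few epiblast reads. Wild type had 1.39% ± 1.36 in epiblast and 0.708% ± 0.483 in ExE (SD, n = 7). No test was made, since the list was chosen with earlier results known.

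Gm32885, a noncoding RNA gene on chromosome 15 (97157117 to 97167278) beside Slc38a4, went the other way. It was 7.50%, 6.85% and 5.33% maternal in Dnmt1 epiblast and 23.4%, 20.7% and 18.95% maternal in Dnmt1 ExE, at 146 or more reads each, whereas wild type went from 7.35% ± 2.46 down to 2.71% ± 1.89 (SD, n = 7). The reciprocal wild type also went down, from 22.1% ± 14.6 to 9.25% ± 10.6 (SD, n = 4). The lineage differences, 1.93 ± 0.20 in Dnmt1 and -1.61 in wild type, differed by 3.54 ± 0.26 (edgeR adjusted p = 6.72e-10), and the call held in each omission of an embryo. It was also among the 33 genes of the expression comparison, with 75.0, 128 and 164 CPM in Dnmt1 epiblast and 1492, 1440 and 1296 CPM in Dnmt1 ExE against wild-type medians of 69.8 and 2285 CPM.

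In all, 8 of 6405 genes (0.125%) had a lineage difference in allelic ratio that differed between genotypes (357 at an unadjusted p under 0.05), 3 in the maternal direction (0.0468%) and 5 in the paternal direction (0.0781%). Beside the genes above these were Uchl4 (-4.71 ± 0.62, adjusted p = 0.0145) and Pfdn1 (-0.44 ± 0.09, adjusted p = 0.0456). Uchl4 was at least 99.0% maternal in each Dnmt1 library and at 0% in the reciprocal cross, a strain difference, and its call rests on a few reads of the other allele. With limma on log ratios 11 genes were called in Dnmt1 and 1 for the difference between genotypes, and without the embryo block 2 were called for that difference. Among the allelic calls described, leaving out embryos gave up Jade1 in Dnmt1 in each of the 3 omissions (log2 -2.06 to -1.50), Gab1 without embryo 45 (-1.21), Sfmbt2 without embryo 45 or 46 (-4.87 to -1.53 over the omissions) and Tssc4 without embryo 44 or 46 (1.47 to 2.88). For the difference between genotypes, H19, Impact and Uchl4 were lost without embryo 45 or 46, Sfmbt2 and Mt1 without embryo 46, Jade1 without embryo 44 or 46, and Pfdn1 in each omission.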

How the data were processed

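Bulk RNA libraries (SMART-Seq v4, Nextera XT, paired reads, per the labels' protocols) of ExE and epiblast from 3 Dnmt1 knockout and 7 wild-type embryos were used. Reads were processed with STAR 2.5.0 and HTSeq on mm10, per the submitters' processing notes. The authors deposited, for each gene and library, the count of reads over strain polymorphisms, an allelic ratio (the CAST fraction minus a constant, so that an even gene lies at the centre) and a score, the signed −log10 of a binomial p-value, given from 10 reads on. Of 30546 genes in the deposited table, 29557 autosomal genes were used and 989 on the X were left out. Allele counts were recovered as the whole number that gives the deposited score: 255675 of 255675 scored values were matched within 0.002, and 992 values at the score's limit, with 6.08% of the reads, used the rounded ratio.

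Counts were fitted with edgeR 4.0.16 (quasi-likelihood, TMM, filterByExpr) in R 4.3.3 over 20 libraries with the embryo as a block, for ExE minus epiblast in Dnmt1, in wild type and for the difference of the 2. Maternal against paternal counts were fitted likewise over genes with at least 10 reads in all 6 Dnmt1 libraries, and for wild type in at least 3 wild-type libraries per tissue. Adjusted p-values are Benjamini-Hochberg over all genes tested, at 0.05. Alternatives used DESeq2 1.42.0, limma 3.58.1 with a pseudocount of 0.5 reads, other scalings, filters and read minimums, and left out each Dnmt1 embryo in turn. Leaving out wild-type embryo 55 was added after seeing the data. The scripts were tested on simulated data.

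The pairing comes from the leading number of the labels, which marks 2 tissues of 1 embryo. The deviations of both tissues from their group means correlated at -0.02, 0.07 and 0.03 across genes in the 3 Dnmt1 embryos and at 0.02 to 0.35 in wild type. The highest value with another embryo was larger for embryos 44 (0.03) and 46 (0.05) and for wild-type embryos 48 (0.11) and 55 (0.38). For embryo 45 (-0.02) and the other wild-type embryos it was smaller. The pairing therefore rests on the labels. Replicates are separate embryos. Members and gene lists were chosen with earlier results of these data known. Named genes were Dnmt1, the 6 largest changes per direction between the Dnmt1 tissues, with no overlap of libraries and at least 10 CPM, up to 8 per direction for the difference between genotypes, the listed imprinted genes past the allelic threshold with up to 5 others, the list genes that differed between genotypes and up to 5 abundant members per list. Genes beyond this rule (Cdx2, Apoa1, Fgb, Hbb-bt, Ptprc, Mixl1, Triml2, Tex15, Gm14124, Dusp6, Smoc1, Phlda2, Ascl2, Kcnq1ot1, Cd81, Peg3, Meg3, Mest and others of the lists) were chosen after their values were seen. Promoter windows of 300 bases are those of RefSeq on GRCm38.p6, matched by symbol. Gene coordinates are those of the deposited table, counted from 1. Counts give the precision of a single library, and intervals of counting error are not used in any test.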

Additional observations from a re-analysis of the deposited data

Results flagged for a closer look

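In groups of 7 wild-type embryos, 7 of 50 values tested had their highest or lowest sample far from the rest by Dixon's criterion at the 95% level, which chance meets in about 1 in 20 groups. All 7 belong to embryo 55: its epiblast had 1311863 reads and 20567 genes with a read, and its ExE minus epiblast log2 difference was 1.65 for Cmtm5, 0.66 for Gja4, -1.28 for Hist3h2ba, -1.71 for Tcea3 and 3.81 for Tex19.1. The part of this library in the comparisons is given by the results without it.

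The lineage difference in expression differed between Dnmt1 and wild type, by the test of the difference itself, in Sycp1 (-5.65), Bglap3 (-5.48), Dppa2 (-5.13), 1700029P11Rik (-5.12), Ccdc172 (-5.01), LOC108167542 (-4.73), Platr5 (-4.51), Dppa4 (-4.03), Tuba3b (-3.37), Tuba3a (-3.33), Slc25a31 (-3.12), Bmp4 (-2.79), Tex19.1 (-2.54), Fkbp6 (-2.42) and Slc16a3 (1.59), all log2.

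The lineage difference in allelic ratio differed in the same way in Sfmbt2 (8.07), Gm32885 (3.54), Jade1 (2.32), H19 (-4.97), Uchl4 (-4.71), Impact (-2.44), Mt1 (-0.60) and Pfdn1 (-0.44), as log2 of maternal over paternal reads.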

How the results depend on the processing

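Of the counts and shares recomputed under the alternatives, 51 stayed within their bounds and 17 moved, and none reversed. Of the values for single genes, 2705 kept their side of the threshold, 116 lost their call and 28 gained one. The 4167 expression calls between the Dnmt1 tissues became 2458 to 3808 when 1 Dnmt1 embryo was left out and 4957 without wild-type embryo 55. The 33 genes that differed between genotypes became 90 with DESeq2, 141 with no filter on low counts, 134 without wild-type embryo 55 and 9 to 17 without 1 Dnmt1 embryo. The 110 allelic calls in Dnmt1 became 11 with limma on log ratios and 56 to 77 without 1 Dnmt1 embryo and 152 without wild-type embryo 55, and the 541 in wild type became 281 with limma. The 8 allelic differences between genotypes became 1 with limma and 1 to 8 without 1 embryo. The silent-allele mean of Dnmt1 epiblast moved from 44.1% to 48.5% at 50 reads or more, and that of Dnmt1 ExE from 30.2% to 38.4% over genes imprinted in both tissues. The cause of these moves was not tested, apart from the fewer samples or genes in the last and in the omissions. With no replicate block, the allelic differences between genotypes numbered 2, and the pairing changed no other count by over 1.5 times (3880 calls in Dnmt1 expression, 30 between genotypes and 88 allelic calls in Dnmt1). With 3 knockout embryos and few reads of many imprinted genes in the epiblast, differences that were not called may have been missed.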
